A study of Mus musculus with 138 samples.

Results

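Tspan2, Stk26, Net1, Cav1, 2010111I01Rik and Fhl1 are 6 genes picked for a shared pattern in the bulk RNA-seq of calvarial sutures. Their RNA was higher in suture mesenchyme (SM) than in the osteogenic fronts (OFs) of the coronal suture, and lower or mixed in the other sutures. They are 6 of 55487 genes counted, and all 6 were among the 19768 genes that passed the filter of 1 CPM (counts of a gene scaled to the size of its library) in over 10% of the libraries. The SM and OF values chose the genes, so every difference between SM and OF below is a description with no test. Age, the 2 fronts against each other, and the relatives of the 6 genes did not enter the choice and were tested.

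The study compared the coronal suture, where the frontal and parietal bones overlap, with the other 3 sutures (frontal, lambdoid, sagittal) in wild type embryos of the strain C57BL/6J. Each region was cut from frozen sections by laser capture microdissection, its RNA was amplified, and 1 library was made per region and embryo. There were 20 groups of 5 libraries: SM, the frontal OF (FR) and the parietal OF (PA) of the coronal suture, SM and FR of the frontal suture, SM, the interparietal OF (IP) and PA of the lambdoid suture, and SM and PA of the sagittal suture, each at both E16.5 and E18.5. A second library existed for 18 of the coronal samples, 3 per group, and 16 libraries came from complete sutures at E18.5. Dissociated coronal sutures of several pooled embryos were measured by single-cell RNA-seq in 2 libraries per age. All samples were wild type, and the embryos of the 2 ages were different animals. A library of SM and one of a front with the same suture, age and number carried the same litter label, and they are called a pair below.

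Suture mesenchyme is the unossified tissue between the growing edges of skull bones. It separates the bones. In the coronal suture the study labelled mesenchyme cells after birth, and their descendants entered bone appreciably only after about the first month. The 6 genes act at different places in a cell. Tspan2 encodes a tetraspanin, a membrane protein that groups other surface proteins, and Cav1 encodes caveolin-1, the main coat protein of the membrane pits called caveolae. Net1 encodes an exchange factor that activates the GTPase RhoA, and Stk26 (also known as Mst4) a kinase of the GCKIII group that joins striatin complexes. Fhl1 encodes a protein made of LIM domains that is abundant in muscle, and 2010111I01Rik encodes aminopeptidase O, a zinc peptidase of the M1 family.

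In mm10, Tspan2 lies on chromosome 3 from 102734529 to 102801513 (forward strand) and Cav1 on chromosome 6 from 17306335 to 17341452 (forward). Net1 spans 3882018 to 3918220 on chromosome 13 (reverse), and 2010111I01Rik spans 62964893 to 63326096 on the same chromosome (forward). Stk26 (50841047 to 50893097) and Fhl1 (56731787 to 56793346) both lie on the forward strand of chromosome X. Reads were counted without regard to strand, so genes on either strand that overlap cannot be told apart where they share exonic sequence. This touches 2010111I01Rik most. It overlaps Fancc, on the opposite strand, whose median count over the bulk libraries was 412.5 against 668.5 for 2010111I01Rik, and several unnamed transcripts, of which Gm47586 had a median count of 239.5.

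The promoters of the 6 genes (250 bases before to 50 after the start, RefSeq on GRCm38.p6) share none of the motifs searched on both strands. The SP motif GGGCGG stands in 3 of 6 (35.7% of all 32851 promoters of that length), the E-box CANNTG in 5 of 6 (72.3%), the TEAD motif GGAATG in 0 (14.7% of all) and the AP-1 motif TGANTCA in 0 (7.81% of all). The CArG box, the site read by serum response factor, stands in 1 of 6, Fhl1 (1.63% of all). The promoters of Net1 and Fhl1 are shown because they contrast the commonest and the rarest of the motifs that were found other than the E-box, with the match in capitals. That of Net1 is at chr13:3918171-3918470 (reverse strand) and that of Fhl1 at chrX:56779433-56779732 (forward), 47896 bases from the gene start in the count files, so it belongs to an inner start.
Net1: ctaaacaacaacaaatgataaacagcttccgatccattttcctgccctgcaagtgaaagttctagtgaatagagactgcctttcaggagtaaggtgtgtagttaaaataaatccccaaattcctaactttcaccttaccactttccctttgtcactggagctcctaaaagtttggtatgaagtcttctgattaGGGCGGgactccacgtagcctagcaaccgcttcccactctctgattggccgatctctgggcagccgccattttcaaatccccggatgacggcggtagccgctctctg
Fhl1: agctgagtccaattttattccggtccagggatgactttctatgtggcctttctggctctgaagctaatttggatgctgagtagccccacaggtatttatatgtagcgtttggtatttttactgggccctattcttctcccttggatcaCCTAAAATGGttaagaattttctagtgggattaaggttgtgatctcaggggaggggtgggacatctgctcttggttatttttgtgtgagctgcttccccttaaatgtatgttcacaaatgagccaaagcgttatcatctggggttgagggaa

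Total counts of the first libraries ran from 7305627 to 34518477. The coronal libraries were the deepest, with medians of 26943759 at E16.5 and 22696696 at E18.5, against 8598662 to 15519560 in the other sutures. Total counts were 5530060 to 17388841 in the second libraries and 8903413 to 15155332 in the complete sutures. The summed level of 12 osteoblast markers was 7055 to 11810 CPM in coronal SM and 15520 to 61170 CPM in coronal fronts. Against the fronts, 9 of the 12 were called lower and 1 higher in coronal SM, with a median log2 difference of -2.15. In SM of the other sutures 12 of 12 were called lower, with a median of -3.99. These comparisons called 16.8% and 27.0% of all genes lower. The part of this weaker coronal separation in the SM and OF values of the 6 genes was not tested. Of 9 markers of suture mesenchyme 8 were called higher in coronal SM than in its fronts, in a comparison that called 20.4% of all genes higher. The study named several of these markers from their SM level in these bulk data, so that count is no independent check. In bulk samples, fewer cells of a type and less RNA per cell cannot be told apart.

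All 6 genes had a fitted mean above 0 in each of the 4 coronal comparisons of SM with an OF (FR and PA at both ages). Tspan2, Stk26, Net1 and 2010111I01Rik were below 0 in 8 of 8 comparisons in the other sutures, Fhl1 in 6 of 8 and Cav1 in 4 of 8. Of the 19768 genes tested, 4380 were above 0 in all 4 coronal comparisons, 1044 of these were also below 0 in at least 4 of the 8 others, and 192 in all 8. The 6 genes fall into a pair of kinds. For Stk26, Net1 and Cav1 the coronal difference itself was about 2-fold, with a mean log2 difference of 1.12 (SE 0.23), 1.07 (SE 0.08) and 1.12 (SE 0.15). For Tspan2, 2010111I01Rik and Fhl1 it was small, 0.47 (SE 0.23), 0.20 (SE 0.11) and 0.14 (SE 0.11), and their place in the pattern came mostly from low SM elsewhere. In the other sutures these 3 were at -1.47 (SE 0.18), -0.87 (SE 0.08) and -0.73 (SE 0.08), against -0.51 (SE 0.16) for Stk26, -0.34 (SE 0.06) for Net1 and -0.24 (SE 0.11) for Cav1. This second kind is not particular to these 3 genes. The 8 proliferation markers had a median of -0.015 in the coronal suture, with 1 called higher and 1 lower. Elsewhere their median was -0.99 and 8 of 8 were called lower, where 27.0% of all genes were. The part of proliferating cells in the values of the 6 genes was not tested. The coronal fit called 20.4% of all genes higher in SM, and 3 of the 6 genes were among them, a count from which nothing is read because SM and OF chose them. Hhip, a hedgehog-binding inhibitor that the study followed in coronal SM, was at 0.90 (SE 0.20) in the coronal suture and -3.03 (SE 0.16) elsewhere.

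**Figure D1:**
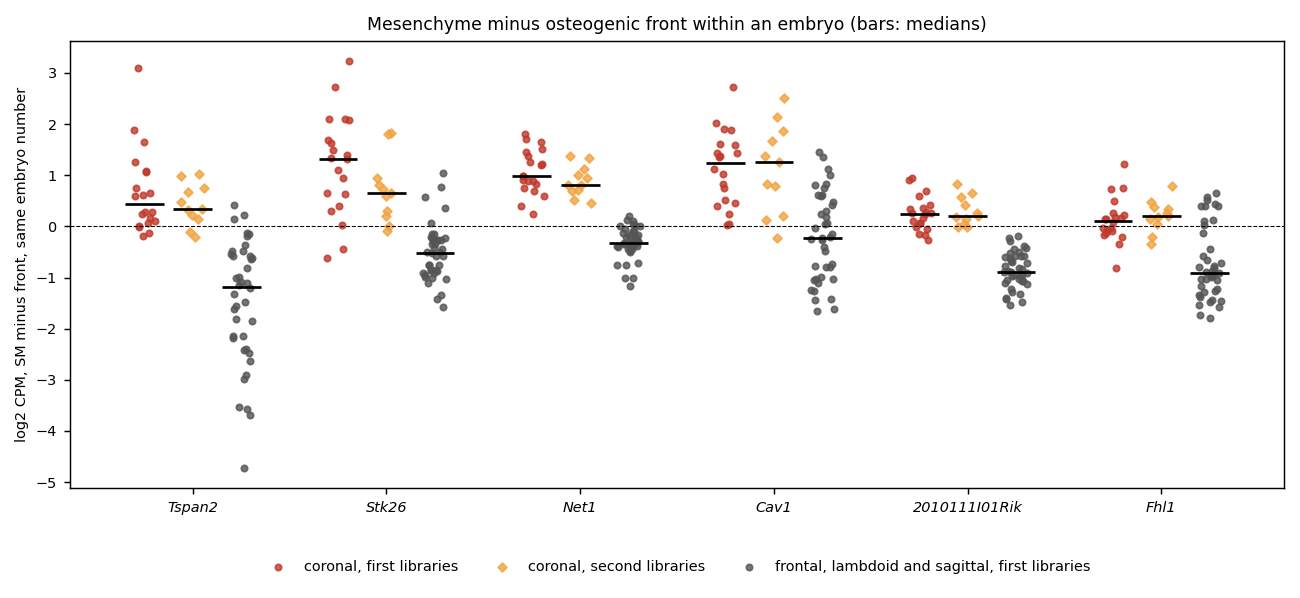
Difference in log2 CPM between SM and an OF with the same number, for each of the 6 genes (20 coronal first, 11 coronal second and 40 other pairs). Black bars are medians. Net1 and Cav1 lie above 0 in 20 of 20 first coronal pairs, and 2010111I01Rik lies below 0 in 40 of 40 pairs of the other sutures.

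Net1 had the smallest standard error of the coronal difference (0.08). In CPM scaled by the TMM method (trimmed mean of M-values), coronal SM at E16.5 held 177, 314, 314, 310 and 244, against 96.2, 110, 168, 119 and 207 in FR and 104.6, 96.1, 114, 88.9 and 105 in PA (libraries 1 to 5). At E18.5 SM held 409, 466, 328, 402 and 246, FR 208, 261, 218, 218 and 188, and PA 172, 148, 165, 175 and 153. SM and PA did not overlap at either age, SM and FR overlapped by 1 library of each at both ages, and SM was the higher of the pair in 20 of 20 pairs. The second libraries gave the same sign in 11 of 11 pairs, with a median log2 difference of 0.82 against 0.98 in the first. In the other sutures Net1 was between 67.8 ± 10.3 CPM (SD, n = 5, sagittal SM at E16.5) and 104 ± 13.5 CPM (sagittal PA at E16.5), and SM was the higher in 7 of 40 pairs.

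Cav1 was also higher in SM in 20 of 20 first coronal pairs and in 10 of 11 second pairs. At E16.5 coronal SM held 120, 175, 82.4, 51.1 and 135 CPM, FR 44.2, 43.0, 40.2, 28.6 and 49.9, and PA 91.0, 58.3, 31.7, 43.2 and 94.2. At E18.5 SM held 178, 246, 274, 217 and 331 CPM, FR 172, 114, 162, 212 and 240, and PA 48.0, 37.2, 73.1, 70.8 and 129. SM overlapped PA but not FR at E16.5, and FR but not PA at E18.5. Outside the coronal suture Cav1 had no single direction. Frontal SM was above FR in 5 of 5 pairs at E16.5 (77.1 ± 29.8 against 47.1 ± 10.0 CPM, SD, n = 5) and in 4 of 5 at E18.5. Lambdoid SM at E16.5 was below IP and PA in 5 of 5 pairs each (20.7 ± 4.74 against 55.9 ± 19.8 and 44.8 ± 11.5 CPM).

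Stk26 had the lowest CPM of the 6 in each coronal group. Coronal SM held 25.8, 17.6, 10.5, 24.2 and 63.7 CPM at E16.5, then 19.8, 17.1, 10.8, 15.2 and 7.83 at E18.5, with library 5 far above the others at E16.5. FR held 6.00, 4.00, 1.481, 9.53 and 24.2 CPM at E16.5, then 6.93, 6.81, 14.7, 11.5 and 12.1 at E18.5. PA held 16.7, 11.2, 3.17, 7.73 and 14.8 CPM at E16.5, then 9.09, 1.70, 8.72, 7.82 and 7.67 at E18.5. SM overlapped both fronts at both ages, and within pairs SM was higher in 18 of 20 first and 10 of 11 second pairs. In the other sutures the groups had means of 2.03 to 7.92 CPM, and SM was the higher in 5 of 40 pairs.

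Tspan2 separated sutures more than it separated regions within the coronal suture. At E18.5 coronal SM held 106, 209, 183, 179 and 253 CPM, FR 89.5, 137, 115, 177 and 277, and PA 87.7, 98.7, 170, 172 and 256. These 3 groups overlapped, whereas SM of the other sutures at E18.5 had 3.47 ± 1.17 (sagittal), 4.56 ± 2.86 (lambdoid) and 5.91 ± 2.30 CPM (frontal; SD, n = 5). Fronts of the other sutures were in between at E18.5, from 14.7 ± 8.80 CPM in lambdoid IP to 33.8 ± 12.6 CPM in lambdoid PA. At E16.5 coronal SM held 42.8, 78.0, 52.0, 34.2 and 57.1 CPM, against 34.4 ± 23.7 in FR and 29.1 ± 20.5 CPM in PA, and overlapped both. SM was higher in 17 of 20 first pairs, 9 of 11 second pairs and 3 of 40 pairs elsewhere.

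2010111I01Rik was almost level within the coronal suture. Coronal SM held 69.8, 86.9, 109, 97.6 and 64.7 CPM at E16.5, then 83.6, 96.2, 112, 109 and 144 at E18.5. The fronts had means of 73.2 ± 31.7 (FR) and 62.8 ± 23.2 CPM (PA) at E16.5, then 99.95 ± 16.3 and 104 ± 19.5 CPM at E18.5 (SD, n = 5), and overlapped SM at both ages. SM was higher in 15 of 20 first and 9 of 11 second pairs. In the other sutures SM was lower in 40 of 40 pairs, with means of 24.4 to 39.7 CPM in SM and 43.2 to 69.5 CPM in the fronts, and SM and fronts overlapped in 1 of the 8 comparisons, lambdoid IP at E18.5.

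Fhl1 had the smallest coronal difference. Coronal SM held 102, 122, 209, 252 and 133 CPM at E16.5, then 221, 426, 313, 267 and 291 at E18.5, and SM was higher in 11 of 20 first and 9 of 11 second pairs. The fronts had 155 ± 57.0 (FR) and 146 ± 27.3 CPM (PA) at E16.5, then 265 ± 51.8 and 272 ± 47.8 CPM at E18.5 (SD, n = 5), and overlapped SM at both ages. SM of the other sutures had means of 47.35 (frontal suture at E16.5) to 66.4 CPM, and SM was lower than its front in 20 of 20 frontal and sagittal pairs. The lambdoid suture had SM above both fronts in 10 of 10 pairs at E16.5 and below both in 10 of 10 at E18.5. Markers of skeletal muscle, the tissue richest in Fhl1, summed to at most 7.59 CPM over 10 genes in the first coronal libraries.

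**Figure D2:**
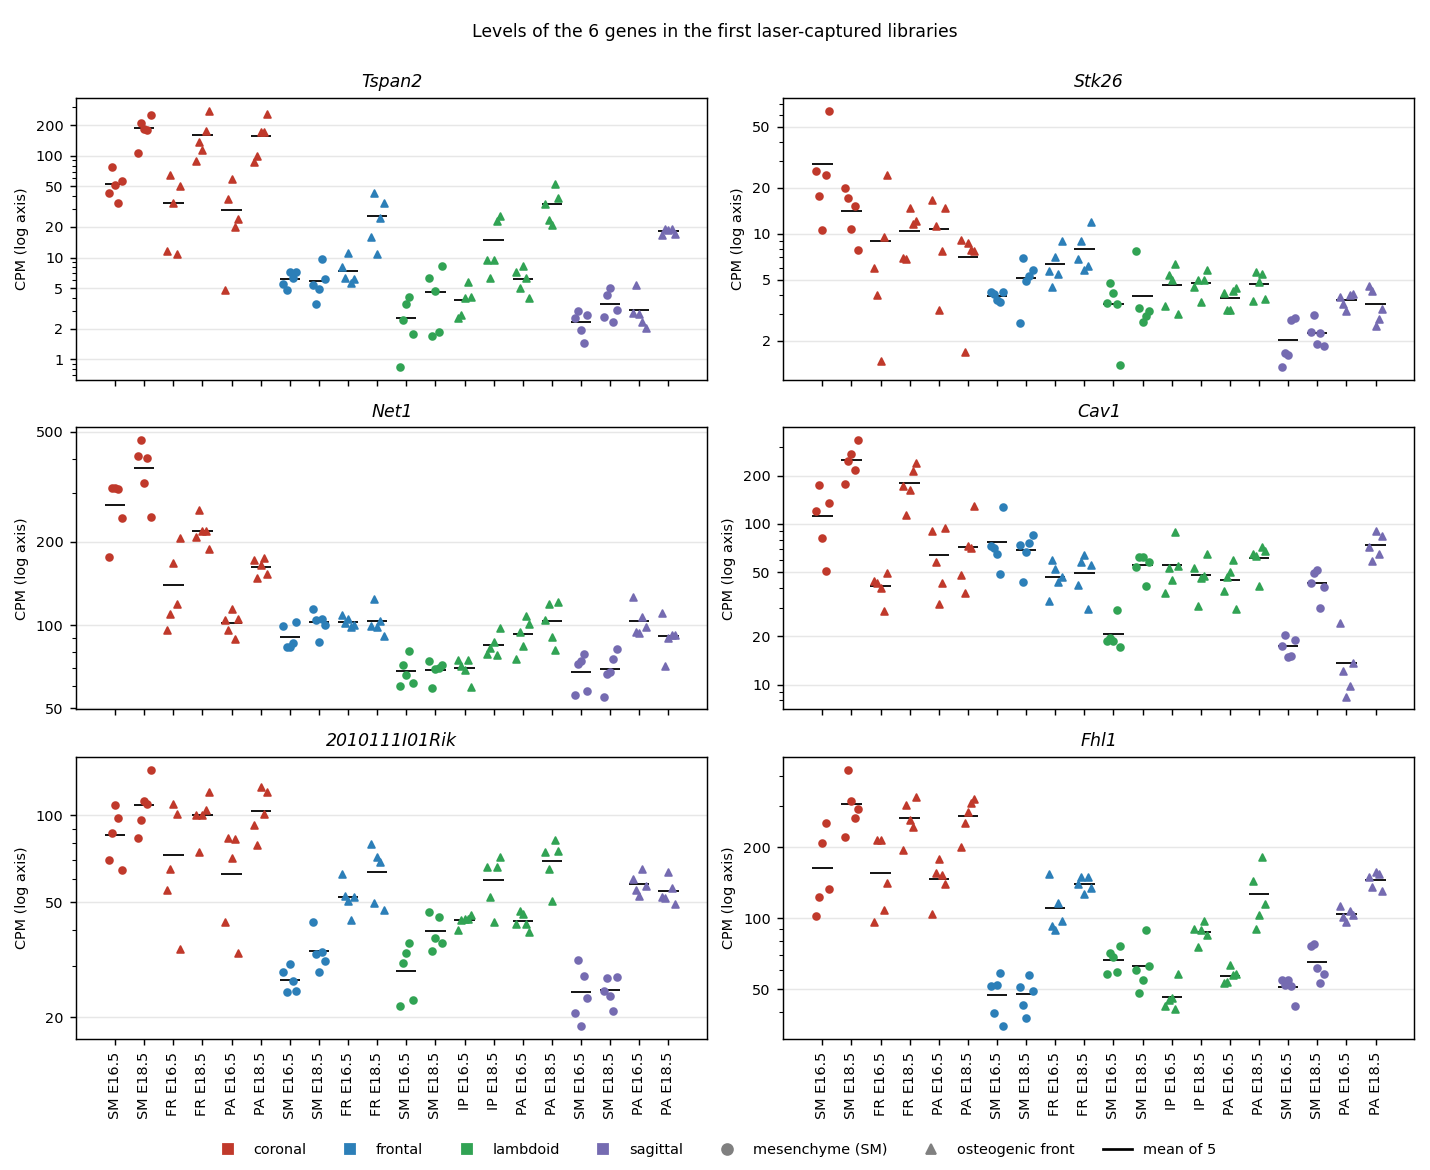
CPM of each gene on a log axis in the 100 first libraries, by suture (colour), region and age. Circles are SM, triangles fronts, and bars the mean of 5 libraries. For each gene coronal SM (leftmost pair of groups) stands above the SM of the other 3 sutures at the same age, except that Cav1 in frontal SM at E16.5 (49.1 to 128 CPM) overlaps coronal SM (51.1 to 175 CPM).

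Ordered by group mean, coronal SM at E18.5 was the highest of the 20 groups for all genes but Stk26, which was highest in coronal SM at E16.5. For Tspan2, 2010111I01Rik and Fhl1 the next 2 groups were the coronal fronts at E18.5, and these 3 did not differ beyond their spread. The first group outside the coronal suture came sixth for Tspan2 (lambdoid PA at E18.5), 2010111I01Rik (the same group), Stk26 (frontal FR at E18.5) and Net1 (sagittal PA at E16.5), seventh for Fhl1 (sagittal PA at E18.5) and, for Cav1, right after coronal SM at E16.5 (frontal SM at E16.5). Per kilobase of exon, the level in coronal SM at E18.5 was 81.8 CPM for Fhl1, 72.4 for Cav1, 70.9 for Net1, 39.1 for Tspan2, 9.65 for 2010111I01Rik and 2.68 for Stk26. The first coronal libraries were also the deepest. The second coronal libraries at E16.5 had total counts (13225136 to 17388841) like those of the sagittal suture (13144810 to 17338803). At each age coronal SM of the second libraries stood above the first libraries of SM of the other sutures at that age, except that Cav1 at E16.5 (67.9 to 142 CPM) overlapped frontal SM. The margin was narrow at E16.5 for Tspan2 (7.84 to 36.2 CPM against at most 7.22) and Stk26 (5.03 to 10.7 against at most 4.80).

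In the 16 libraries of complete sutures each of 4 sets (C, IF, L and S, letters that the labels do not explain) holds all 4 sutures, at total counts that overlap. They carry 1 replicate number per suture, so the sets may be repeats of the same tissue and are given as values. The titles of the captured libraries use the same letters for the sutures. If a set stands for the libraries of 1 suture, suture and set coincide in the captured libraries. Differences in level between sutures could then not be told apart there from differences between sets. Tspan2 was highest in the coronal suture in 4 of 4 sets, at 58.55, 83.5, 78.8 and 46.3 CPM against at most 20.8, 24.7, 24.4 and 14.6 CPM in another suture of the set. Net1 was highest there in 4 of 4 sets, at 164 to 222 CPM against at most 101 to 113 CPM. Fhl1 (153 to 181 against at most 89.9 to 132 CPM) and 2010111I01Rik (67.4 to 84.7 against at most 58.8 to 68.4 CPM) were also highest in 4 of 4. Cav1 was not: its coronal level was 115 to 134 CPM and was highest in 1 of 4 sets, with a median log2 difference of 0.07 from the mean of the others. Stk26 was lowest in the coronal suture in 3 of 4 sets, at 2.56 to 6.16 CPM, and highest in the lambdoid suture in each, at 14.1 to 21.1 CPM. The 9 chondrocyte markers summed to a median of 6336 CPM in those lambdoid libraries against 284 CPM in the coronal ones, and the part of cartilage in the level of Stk26 was not tested.

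**Figure D3:**
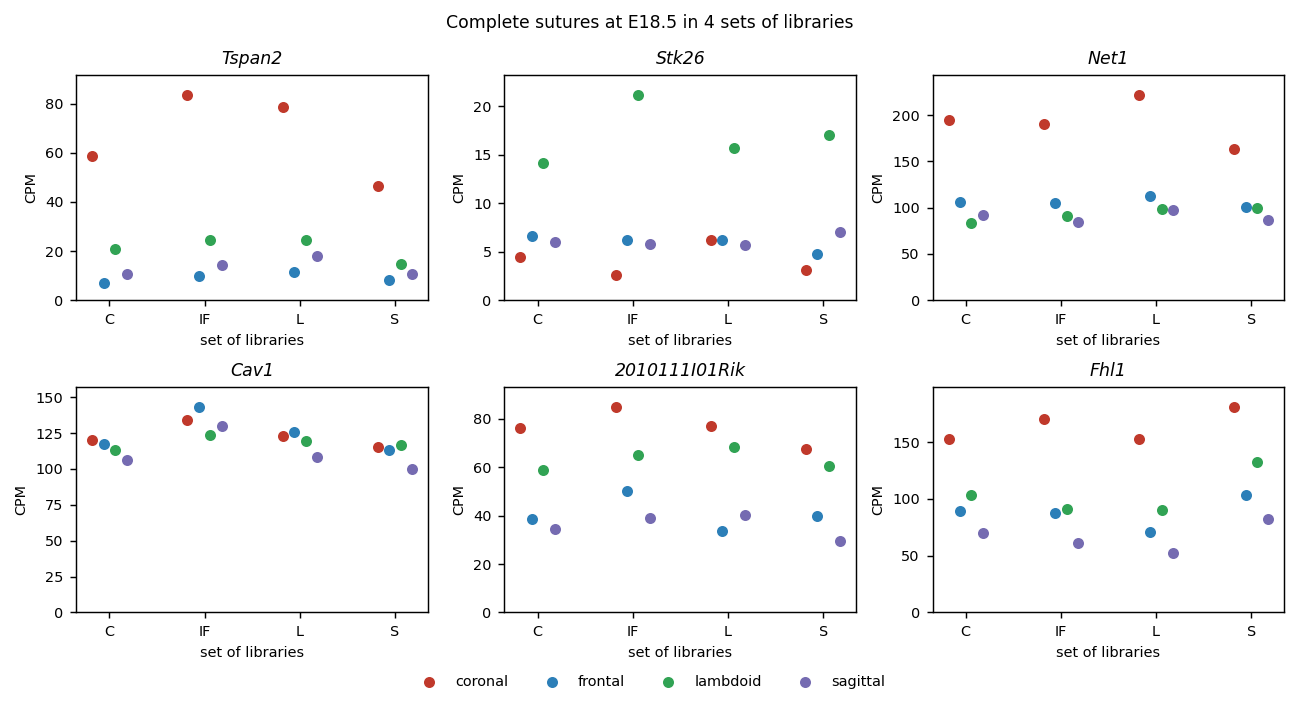
CPM of each gene in complete sutures at E18.5, 1 point per library, in 4 sets of libraries that each hold all 4 sutures (colours). The coronal point is the highest in 4 of 4 sets for Tspan2, Net1, 2010111I01Rik and Fhl1, and Stk26 is highest in the lambdoid suture in each set.

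Age, which the choice of genes did not use, moved most of the 6 in coronal SM. Between E16.5 and E18.5 the edgeR quasi-likelihood test with Benjamini-Hochberg adjustment over all genes called 5 of the 6, in a comparison that called 27.1% of all genes. Tspan2 rose 3.54-fold (log2 1.82, SE 0.39, adjusted p = 0.000181), from 52.8 ± 16.6 to 186 ± 53.4 CPM, and its ages did not overlap. Cav1 rose by 1.15 (SE 0.26, adjusted p = 0.00043) on the log2 scale, from 113 ± 47.8 to 249 ± 57.9 CPM, also without overlap. Fhl1 rose by 0.90 (SE 0.18, adjusted p = 9.62e-05) and Net1 by 0.46 (SE 0.14, adjusted p = 0.0108), with overlap between the ages. Net1 lost the call without number 1 (0.29, adjusted p = 0.171) and in the coronal libraries alone (adjusted p = 0.141). Stk26 fell by 1.00 (SE 0.38, adjusted p = 0.0412), from 28.4 ± 20.7 to 14.1 ± 4.81 CPM. This call was held in 5 of 11 alternatives (adjusted p from 0.0212 to 0.602), and without the libraries of number 5 the change was -0.31 (adjusted p = 0.602). 2010111I01Rik changed by 0.35 (SE 0.18, adjusted p = 0.14), which did not pass. These calls use 1 spread for all 20 groups. A fit of the coronal libraries alone called 1349 genes in place of 5367 and kept Tspan2, Cav1 and Fhl1, which were called in 11 of 11 alternatives.

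The other sutures shared this only in part. In lambdoid SM (2.96% of genes called) and in sagittal SM (1.12% called) Cav1 was the 1 gene of the 6 that changed, rising by 1.42 (SE 0.27, adjusted p = 0.000249) and 1.30 (SE 0.27, adjusted p = 0.00163) on the log2 scale. With the libraries of 1 suture alone, sagittal SM gave 1619 calls in place of 221, with Fhl1 among them (0.34, adjusted p = 0.0345), and lambdoid SM 1804 in place of 585, both more than the 1349 of coronal SM fitted in that way. In frontal SM (2.33% of genes called) none of the 6 passed, with 2281 genes at an unadjusted p under 0.05. The test of the difference itself, coronal change less the mean change of the other 3 SM, called 23.8% of all genes and 3 of the 6. Fhl1 rose more in the coronal suture by 0.80 (SE 0.21, adjusted p = 0.0031), Tspan2 by 1.37 (SE 0.46, adjusted p = 0.0205), and Stk26 fell more, by 1.25 (SE 0.45, adjusted p = 0.0312). Fhl1 was called in 9 of 10 alternatives (not without number 2, at 0.53), Tspan2 in 6 (not without number 3, 4 or 5, at 1.21 to 1.35, nor with limma-voom) and Stk26 in 4 (at -0.58 without number 5). The difference did not pass for Net1, at 0.38 (SE 0.16, adjusted p = 0.0845), or for Cav1, at 0.28 (SE 0.30, adjusted p = 0.53).

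In the coronal fronts Tspan2 rose as it did in SM, by 2.22 (SE 0.39, adjusted p = 1.13e-05) in FR, where 24.4% of genes and 4 of the 6 were called, and by 2.44 (SE 0.40, adjusted p = 3e-06) in PA, where 20.6% of genes and 4 of the 6 were called. Fhl1 rose by 0.79 (SE 0.18) in FR and 0.92 (SE 0.18) in PA, and Net1 by 0.66 (SE 0.14) and 0.69 (SE 0.14), with adjusted p from 0.000124 to 0.000737. Cav1 rose by 2.13 (SE 0.27, adjusted p = 3.38e-09) in FR and changed by 0.19 (SE 0.26, adjusted p = 0.64) in PA. 2010111I01Rik rose in PA, by 0.74 (SE 0.18, adjusted p = 0.00211), and stood at 0.46 (SE 0.18, adjusted p = 0.0572) in FR. The call in PA was lost without number 5 (0.48, adjusted p = 0.0535) and in the coronal libraries alone (adjusted p = 0.151), and FR passed in 3 of 11 alternatives (adjusted p from 0.00659 to 0.525). Fhl1 in FR also lost its call in the coronal libraries alone (adjusted p = 0.054). Stk26 passed in neither front. Age was not tested in the fronts of the other sutures, but Tspan2 had higher means there at E18.5 too. It went from 7.46 to 25.7 CPM in frontal FR and from 3.08 to 18.2 CPM in sagittal PA. In the lambdoid suture it went from 3.85 to 14.7 CPM in IP and from 6.15 to 33.8 CPM in PA. The means of Fhl1 were also higher at E18.5 in each of these fronts. Those of Cav1 were higher in sagittal PA (13.7 and 74.0 CPM) but lower in lambdoid IP (55.9 and 48.5 CPM).

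**Figure D4:**
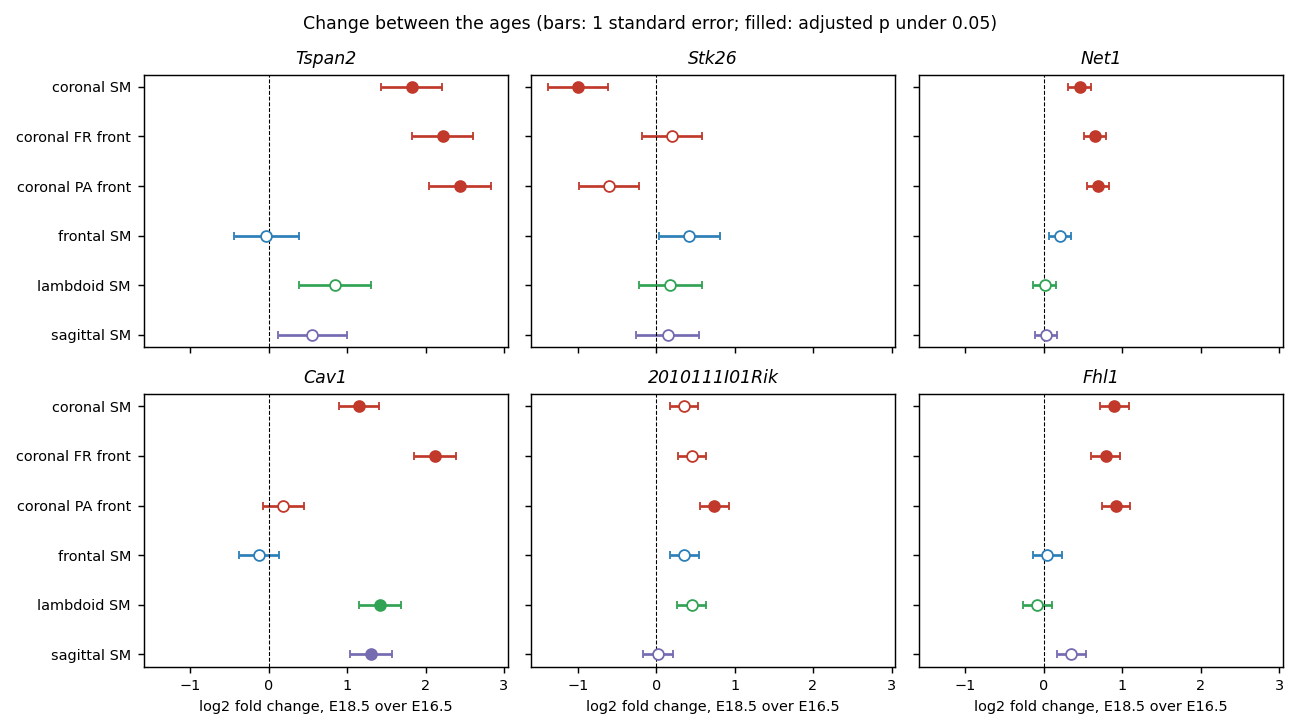
Fitted log2 fold change of E18.5 over E16.5 for each gene in coronal SM, FR and PA and in the SM of the other sutures. Bars are 1 standard error and filled points have an adjusted p under 0.05. Tspan2, Fhl1 and Net1 rose in all 3 coronal regions, and Cav1 rose in coronal SM and FR and in lambdoid and sagittal SM.

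The 2 fronts of the coronal suture border different bones and were compared directly. At E18.5 (5.44% of genes called) Cav1 was 2.44-fold higher in FR than in PA (log2 1.29, SE 0.26, adjusted p = 0.000518), a call held in 12 of 12 alternatives. At E16.5 Cav1 stood the other way, at -0.65 (SE 0.26, adjusted p = 0.0783). The change of this difference between the ages, tested after the values had been seen, was 1.94 (SE 0.37, adjusted p = 0.000332, 5.86% of genes called). It was past the threshold in 11 of 12 alternatives, and in the coronal libraries alone it stood at 1.97 with an adjusted p of 0.0787. At E16.5 (14.4% of genes called) Net1 was higher in FR by 0.43 (SE 0.14, adjusted p = 0.028). With the replicate number as a block this was no longer called (adjusted p = 0.0588). The call was held in 6 of 12 alternatives, and was also lost without number 3 (adjusted p = 0.0941) or number 5 (adjusted p = 0.176). At E18.5 the fronts did not overlap for Net1, but its difference of 0.40 (SE 0.14, adjusted p = 0.0865) did not pass. It passed in 5 of 12 alternatives (adjusted p from 0.0123 to 0.522). The other 4 genes did not pass at either age, with log2 differences from -0.26 to 0.54.

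Cav1 is abundant in endothelium, so vascular markers are given beside it. The 10 endothelial markers, of which 0 were at 0 throughout a coronal group, summed to 197 to 450 CPM in FR and 72.3 to 121 CPM in PA at E18.5, and to 166 to 368 and 122 to 451 CPM at E16.5. With age, 4 of the 10 were called higher in FR, 5 lower and 1 higher in PA, and 0 either way in SM, where Cav1 rose. In coronal SM against its fronts 6 of 10 were higher and 0 lower. Cav1 per unit of that sum had a median of 0.29 at E16.5 and 0.80 at E18.5 in coronal SM, of 0.17 and 0.50 in FR, and of 0.26 and 0.62 in PA. In the second libraries of coronal SM it was 0.18 and 0.38. It was also higher at E18.5 in SM of the frontal (0.17 and 0.25), lambdoid (0.18 and 0.27) and sagittal suture (0.15 and 0.21). Complete sutures at E18.5 had medians of 0.34 (coronal), 0.31 (lambdoid), 0.25 (frontal) and 0.25 (sagittal). Markers of pericytes and smooth muscle were called higher with age in 5 of 10 in SM (1 lower), 8 of 10 in FR and 7 of 10 in PA (1 lower). In the SM where Cav1 also rose with age, the endothelial sum was 87.7 to 152 CPM at E16.5 against 146 to 243 CPM at the later age in the lambdoid suture, and 92.8 to 170 against 146 to 247 CPM in the sagittal one. In lambdoid SM at E16.5, where Cav1 was below both fronts, 7 of 10 endothelial markers were lower than in IP and 7 of 10 lower (1 higher) than in PA (median log2 -1.49 and -1.26, Cav1 -1.49 and -1.17), and in coronal SM against PA at E18.5 9 of 10 were higher (median 1.95, Cav1 1.76). The part of either cell type in the values of Cav1 was not tested. Macrophage markers were also higher with age, in 8 of 10 in coronal SM, 7 of 10 in FR and 2 of 10 in PA, as were those of periosteum, in 3 of 6 in SM, 4 of 6 in FR and 4 of 6 in PA with 0 lower (medians of their sum 7807 and 15150 CPM at the 2 ages in SM, and 7954 and 15020 CPM in PA). The part of either list in the age changes of the 6 genes was not tested. The chondrocyte markers summed to 93.9 to 141 CPM at E16.5, then 245 to 338 CPM at E18.5 in coronal SM, but 1 of 9 was called higher and 0 lower. Their part in the level of Stk26 was not tested.

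The relatives of the 6 genes were tested in the same fit, in which SM and the coronal fronts differed for 37.2% of all genes, SM and fronts of the other sutures for 52.1%, and the coronal difference from that of the other sutures for 20.8%. Of 8 tested caveola genes other than Cav1, 2 were higher in coronal SM and 0 lower, with a median log2 difference of 0.08 against 0.07 over all genes. Cav2, which forms complexes with caveolin-1, was higher by 1.35 (SE 0.24, adjusted p = 2.79e-06), and its difference from the other sutures, 1.56, also passed (adjusted p = 3.58e-05). Ehd2, an ATPase at the neck of caveolae, was higher by 0.43 (SE 0.11, adjusted p = 0.00146) in the coronal and by 0.34 in the other sutures. Of 3 other four-and-a-half LIM genes tested, Fhl3 and Fhl4 were lower, by -0.82 (SE 0.18, adjusted p = 0.000152) and -1.41 (SE 0.52, adjusted p = 0.026), and Fhl2 did not pass. Fhl3 was lower in the other sutures too, by -0.33. Cav2 was called in 12 of 12 alternatives, Fhl3 in 11 (not with second libraries), Ehd2 in 10 (not without number 2) and Fhl4 in 7 (not without number 2, 4 or 5, at -0.996 to -1.38).

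Among 10 genes of GCKIII kinases and their partners, 1 was higher and 1 lower in coronal SM. The scaffold Strn was higher by 0.33 (SE 0.10, adjusted p = 0.00445) and Ccm2 lower by -0.41 (SE 0.16, adjusted p = 0.0357), and in both the coronal difference also departed from that of the other sutures, by 0.49 (adjusted p = 0.00103) and -0.50 (adjusted p = 0.0483). Strn in coronal SM was called in 9 of 12 alternatives (0.20 without number 2, adjusted p = 0.114, and 0.16 with second libraries, adjusted p = 0.378). Ccm2 was called in 4 of 12, and stood at -0.13 without number 1 (adjusted p = 0.59) and at -0.36 with the replicate number as a block (adjusted p = 0.0907), and its difference from the other sutures was called in 4 of 11. Of 11 genes of RhoA exchange and signalling, 1 was higher and 2 lower. Rhoa itself, the GTPase that Net1 acts on, was lower by -0.43 (SE 0.07, adjusted p = 9.67e-07), the exchange factor Arhgef1 lower by -0.61 (SE 0.12, adjusted p = 1.14e-05) and Rhob higher by 0.43 (SE 0.17, adjusted p = 0.0335). In the other sutures Rhoa (-0.59), Arhgef1 (-0.20) and Rhob (0.37) had the same signs, and the difference between sutures passed for Arhgef1 (-0.40, adjusted p = 0.0236) but not for Rhoa (adjusted p = 0.184) or Rhob (adjusted p = 0.88). Rhoa and Arhgef1 were called in coronal SM in 12 of 12 alternatives and Rhob in 8 (0.28 without number 2, adjusted p = 0.237), and the difference for Arhgef1 in 7 of 11. With age in coronal SM 5 of these 11 were higher and 1 lower, and of the 8 caveola genes 3 were higher and 0 lower, in a comparison that called 27.1% of all genes. Of 24 other tetraspanins 4 were higher and 3 lower. Tspan7 was higher by 0.81 (SE 0.16) and Tspan5 by 0.73 (SE 0.17), and Cd63 and Tspan14 were lower, by -0.73 (SE 0.14) and -0.77 (SE 0.18). Elsewhere Tspan5 (0.65), Cd63 (-1.18) and Tspan14 (-0.53) had the same signs and Tspan7 stood at -0.007. Of 10 other M1 peptidases 2 were higher and 1 lower: Enpep, the aminopeptidase that cleaves angiotensin, was higher by 1.89 (SE 0.31) in the coronal suture and by 2.20 elsewhere, Npepps higher by 0.44 (SE 0.10) and Rnpepl1 lower by -0.41 (SE 0.13). Elsewhere Npepps stood at 0.10 and Rnpepl1 at 0.22. The 4 tetraspanins, Enpep and Npepps were called in 12 of 12 alternatives and Rnpepl1 in 7. Rnpepl1 was not called without number 1, 2 or 3 (at -0.28 to -0.36), in the coronal libraries alone (-0.42) or with second libraries (-0.11, adjusted p = 0.559).

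In single cells of the coronal suture at E18.5, the cells named suture mesenchyme-like from markers (543 of 3989 kept, in clusters 5 and 8) held more of 5 of the 6 genes, in CPM of UMIs (unique molecular identifiers, 1 per captured transcript), than the 777 osteoblast-like cells, and the intervals for Stk26 overlapped. With 1 pool of embryos per library and clusters drawn from the same cells, these are values with no test, and all intervals are 95% Poisson intervals that cover counting error only. Fhl1 was at 235 CPM (226 to 246) against 86.0 (80.8 to 91.4), Net1 at 96.4 (90.1 to 103) against 37.8 (34.4 to 41.4) and 2010111I01Rik at 50.1 (45.6 to 54.9) against 21.7 (19.2 to 24.5). Tspan2 was at 44.5 (40.3 to 49.1) against 16.9 (14.6 to 19.4), Cav1 at 72.1 (66.6 to 77.8) against 9.27 (7.63 to 11.2) and Stk26 at 2.44 (1.53 to 3.70) against 0.92 (0.46 to 1.64). With both libraries summed, Tspan2, Net1 and Fhl1 were highest of all classes in these cells. The interval of Tspan2 overlapped those of endothelial-like (35.7 CPM, 27.3 to 46.0) and proliferating-like cells (37.4 CPM, 32.6 to 42.7), and in library 2 proliferating-like cells held more (51.5 against 41.2 CPM). The name rests on different genes in clusters 5 and 8. In cluster 5, which holds 346 of the 543 cells, Angptl2 was the only listed mesenchyme marker among the leading genes. In cluster 8 they were Adamts8, Hhip and Erg, none of which led in cluster 5. Cluster 5 shared Dpt and Ptx4 with cluster 8, and Tnn and Lrrc15 with the cluster named periosteum-like. Clustering with more components gave no class of this name, and the values here are for both clusters together. Clusters 5 and 8 divided by library, with 344 of 346 cells of cluster 5 in library 1 and 155 of 197 cells of cluster 8 in library 2. So did the osteoblast-like clusters, with 298 of 299 cells of cluster 6 and 106 of 106 of cluster 13 in library 1. Library 2 held 353 of 372 cells of osteoblast-like cluster 4. The ratios with 1 library left out therefore compare largely different clusters. Without library 1 the log2 ratio of mesenchyme-like to osteoblast-like cells was 2.58 for Net1 and 2.35 for Fhl1, and without library 2 it was 1.08 and 1.25. For Tspan2 it was 0.78 without library 1 and 1.64 without library 2, and for Cav1 2.21 and 3.57, over an osteoblast-like level of Cav1 that is read as background below.

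The share of suture mesenchyme-like cells with a UMI was 89.3% for Fhl1, 60.8% for Net1, 49.7% for 2010111I01Rik, 44.6% for Cav1, 41.3% for Tspan2 and 3.68% for Stk26. After each cell was thinned to 3500 UMIs the shares were 54.1%, 25.2%, 17.1%, 19.2%, 14% and 0.74%. In erythroid-like cells, which should lack these transcripts, the thinned shares were 7.14%, 4.76%, 3.57%, 5.95%, 4.76% and 0% (0 of 84 cells, which allows a share of up to 3.57%), so the share for Stk26 lies within what that count of 0 allows. The osteoblast-like shares of Tspan2 (4.76%) and Cav1 (5.41%) were no higher than the erythroid-like ones, which rest on those 84 cells. In CPM, however, Tspan2 in osteoblast-like cells (16.9) stood above erythroid-like (9.31), macrophage-like (4.78) and osteoclast-like cells (2.25), and it is not read as background. Cav1 in osteoblast-like cells (9.27 CPM) was near macrophage-like (8.45) and below erythroid-like cells (19.8), and is read as background. Stk26 was highest in chondrocyte-like cells, at 20.9 CPM at E18.5 and 141 CPM (80.9 to 230) at E16.5, where they held 16 of its 27 UMIs. Cav1 was highest in endothelial-like cells, at 1094 CPM at E18.5 and 1126 CPM at E16.5, and those 69 and 72 cells held 51.0% and 83.6% of its UMIs. 2010111I01Rik was about as high in chondrocyte-like cells (55.1 CPM) as in suture mesenchyme-like ones (50.1 CPM).

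**Figure D5:**
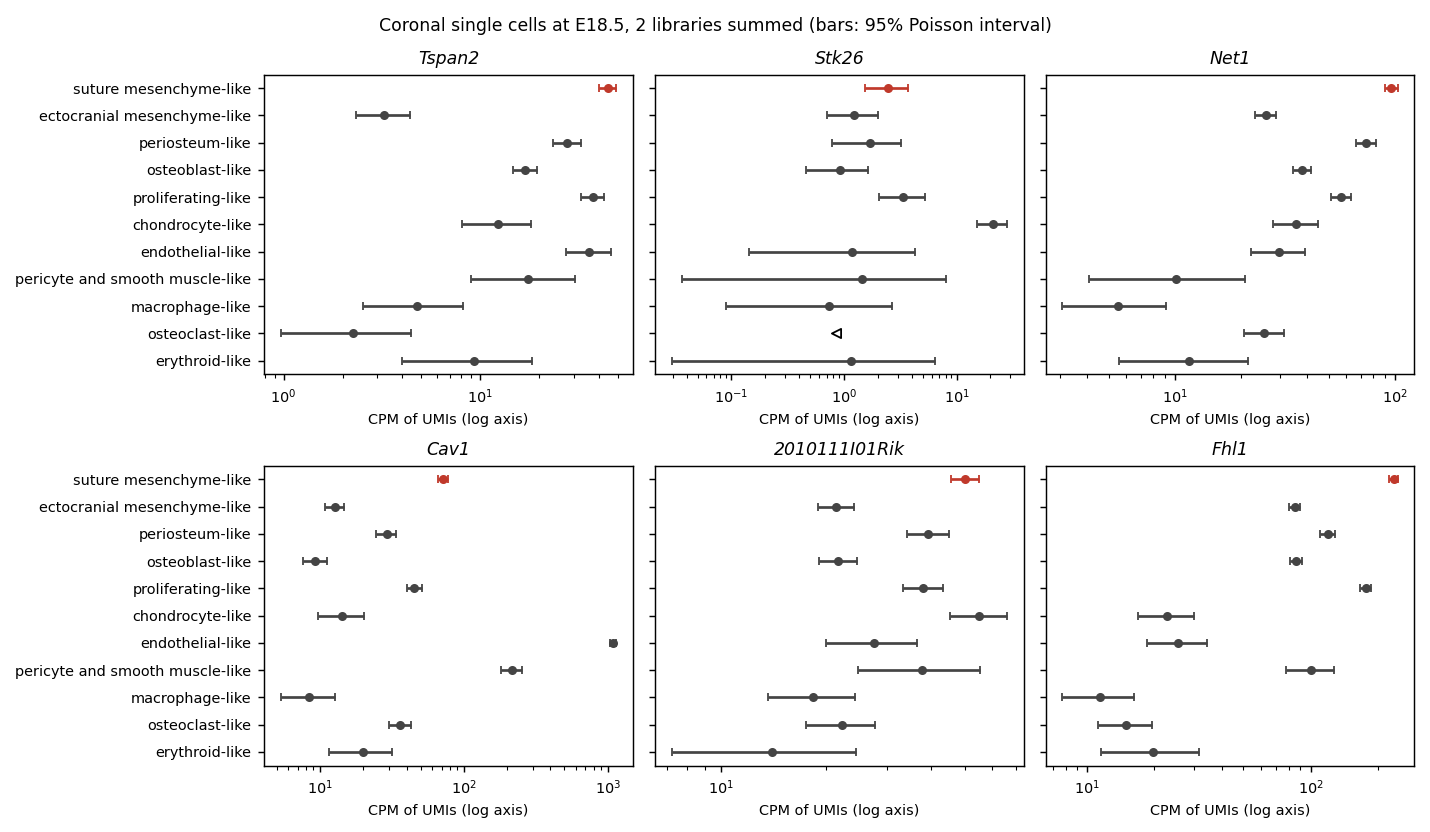
CPM of UMIs of each gene (log axis) in the named cell classes at E18.5, both libraries summed, with 95% Poisson intervals. Suture mesenchyme-like cells (red) lead for Net1 and Fhl1, and for Tspan2 with intervals that overlap other classes, endothelial-like cells for Cav1 at 1094 CPM and chondrocyte-like cells for Stk26 at 20.9 CPM, and the open triangle marks the limit that 0 counts allow.

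At E16.5 no cluster took the name of suture mesenchyme, and the 803 cells kept had medians of 2501 and 2121 UMIs against 18476 and 7131 at E18.5, with another capture chemistry. The study itself reported more cells at E16.5 and a suture mesenchyme population enriched for Sox6 and Erg. The missing name is therefore not read as an absence of that population from the tissue. Whether its cells are among those kept here was not tested. The 6 genes had 16 (Tspan2) to 293 (Cav1) UMIs in all. The order of cell types for Tspan2 was therefore not detectable at this depth at E16.5. Net1 and Fhl1 were highest in osteoblast-like cells, at 77.1 (55.1 to 105) and 90.6 CPM (66.6 to 120.5), with intervals that overlap those of dura mater-like cells. Of the 175 osteoblast-like cells at E16.5, 136 were in a cluster that had Hhip among its 10 leading genes and shared 5 of them (Tnn, Npnt, Tnc, Alpl and Fgfr2) with the cluster named periosteum-like at E18.5, so the class may hold different cells at the 2 ages. Libraries of 1 age shared 1 (E16.5) and 5 (E18.5) cell barcodes.

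Across the 20 group means of log2 CPM the 6 genes correlated with each other at r from 0.53 (Cav1 and Fhl1) to 0.91 (Tspan2 and Fhl1, and 2010111I01Rik and Fhl1). The groups share sutures and depth, and the genes were chosen on the same means, so these values describe the choice. Genes most like their mean profile included Aig1 (r = 0.94), Ermp1 (0.93), Purb (0.92) and Sgcd (0.92). Hhip stood at rank 559 with 0.73. For 5 of the 6 the gene most like each was Mindy3 for Stk26 (0.95), Pthlh for Net1 (0.92), Cav2 for Cav1 (0.94), Arl6 for 2010111I01Rik (0.93) and Enpp1 for Fhl1 (0.91).

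The second coronal libraries differed in level from the first libraries of the same samples. For Tspan2 the second libraries of coronal SM held 7.84, 36.2 and 17.7 CPM at E16.5 (numbers 1 to 3) where the first held 42.8, 78.0 and 52.0. Tspan2 was lower in 18 of 18 second libraries, by a median of -1.04 on the log2 scale, Cav1 in 16, Fhl1 in 14, Stk26 and 2010111I01Rik in 13 and Net1 in 6. The origin of these libraries is not stated in the labels.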

How the data were processed

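The authors trimmed reads with cutadapt, aligned them to mm10 with STAR (2.5.3a) and deposited raw counts of read pairs per gene from featureCounts (1.6.4, no strand, GENCODE exons summed per gene), 1 file per library. The single-cell files hold the authors' UMI counts per gene and barcode. A deposited table of the authors' own log2 comparisons was not used.

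Counts were fitted in edgeR (4.0.16, quasi-likelihood, TMM) with 1 mean for each of 20 groups, after a filter of 1 CPM in over 10% of the 100 first libraries, with Benjamini-Hochberg adjustment over 19768 genes and a threshold of 0.05. Printed CPM use TMM factors over all 134 bulk libraries. Tests are two-sided. The labels give a number and litter per library, so p-values measure the spread between these samples. Libraries of SM and front with the same suture, age and number share a litter label, so the numbers pair them. The residuals of same-numbered pairs had a median correlation of 0.0508 (60 pairs) against -0.012 for other numbers (240 pairs). Alternatives were RLE size factors, DESeq2 (1.42.0), limma-voom (3.58.1), no filter, the suture's own libraries alone, second libraries, each number left out, and the number as a block. On simulated counts of 19768 genes for the age comparison of coronal SM, 48 of 100 genes changed 2-fold and 64 of 100 changed 3-fold were called, with 4 false calls. Only these genes changed in the simulation, whereas the real comparison called 27.1% of all genes, so the shares found need not hold for it. A bar on the number called, set beforehand, was not met and was replaced after this result was seen.

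Cells with over 800 genes and within 3 median absolute deviations were clustered per age (2000 variable genes without the 6 genes, 13 components, 30 neighbours, resolution 0.8, leidenalg 0.10.2) and named from marker lists. No doublet caller was run. Shares were also computed after thinning to 3500 UMIs at E18.5, and no cell kept was shallower. Intervals cover counting error only. Promoters came from RefSeq tables. The 6 genes, the gene lists and the tests were chosen with earlier results of these data known. All 6 genes were named, up to 4 relatives per list by lowest p, and the genes most like the members by correlation over the 20 groups. Among the latter, 1 gene is not reported here.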

Additional observations from a re-analysis of the deposited data

Results flagged for a closer look

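Of 144 groups of 4 or more libraries, 6 held a library that stood apart from the rest of its group, and chance gives about 1 in 20. Stk26 was lowest at 1.70 CPM in library 2 of coronal PA at E18.5 (nearest 7.67) and at 1.39 CPM in library 5 of lambdoid SM at E16.5 (nearest 3.49), and highest at 7.70 CPM in library 1 of lambdoid SM at E18.5 (nearest 3.27). Cav1 was highest at 29.0 CPM in library 4 of lambdoid SM at E16.5 (nearest 19.5) and lowest at 41.2 CPM in library 3 of lambdoid PA at E18.5 (nearest 63.3). Fhl1 was lowest at 42.4 CPM in library 5 of sagittal SM at E16.5 (nearest 51.6).

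The change with age differed between coronal SM and the SM of the other sutures by 1.37 for Tspan2, -1.25 for Stk26 and 0.80 for Fhl1 on the log2 scale, each past the threshold of the test of that difference. In the second libraries of coronal SM, however, Stk26 was higher at E18.5 than at E16.5. The difference between FR and PA of the coronal suture changed between the ages by 1.94 for Cav1.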

How the results depend on the processing

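Of 1660 alternatives over the calls across genes, the 6 genes, the named relatives and the single-cell ratios, 1428 left the result as it was, 59 moved a value with no call of its own (7 single-cell ratios, the rest counts), 102 lost a call, 17 gained one and 54 turned a direction. For a tested gene, as it was means the same direction and side of the threshold. For a count of calls it means a similar number, and for a single-cell ratio a shift within counting error. For SM against OF of the 6 genes it means the same direction and a shift below the spread between pairs. The named relatives were added after their values had been seen. The cause was not tested where none is named. With a suture's own libraries alone, which leaves fewer samples for the spread, the calls with age numbered 1349 in coronal SM (3 of the 6 genes), 1063 in frontal SM, 1804 in lambdoid SM, 1619 in sagittal SM (2 of the 6), 945 in FR and 552 in PA. FR against PA then gave 14 calls at E16.5 (0 of the 6), 130 at E18.5 and 5 for the change between ages (0 of the 6), and SM against OF gave 3120. With the second coronal libraries, calls with age numbered 2072 in SM, 1516 for coronal less other sutures, 2073 in FR and 1523 in PA, and FR against PA gave 677 at E16.5, 437 for the change and 2 of the 6 genes at E18.5. With limma-voom, lambdoid SM gave 223 calls with age, coronal less other sutures 1 of the 6, and FR against PA 0 of the 6 at E16.5 and 1912 calls with 2 of the 6 at E18.5. With no filter FR against PA called 0 of the 6 at E16.5, and with RLE or DESeq2 it called 2 of the 6 at E18.5. With the replicate block, FR against PA gave 1797 calls at E16.5 (0 of the 6) and 680 for the change, and the block altered no other call of the 6 genes in FR against PA. The changes with age were not fitted with a block, since the ages are different embryos.

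Directions turned only for values that were not called. Among relatives, Tspan7 in the other sutures was 0.079 with RLE and DESeq2 and -0.039 to 0.049 with each number left out. For coronal less other sutures, Enpep was 0.001 with limma-voom, Ehd2 -0.019 and Tspan5 -0.267 with second libraries, and with each number left out Ehd2 ranged from -0.036 to 0.18, Rhob from -0.089 to 0.24 and Tspan5 from -0.11 to 0.17. Net1 in lambdoid SM with age was -0.002 without the filter and -0.004 in the own suture, and its change of FR against PA 0.008 with limma-voom. Tspan2 in FR against PA at E18.5 was 0.047 with RLE and with DESeq2, 0.012 without the filter and 0.039 in the own suture. With second libraries Stk26 was at -0.34 with age in FR, 0.24 for FR against PA at E16.5 and -0.24 for its change, and Fhl1 at -0.19, 0.087 at E18.5 and 0.28.

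Leaving out each number in turn gave these ranges of calls with age: 3433 to 6095 in coronal SM (3 to 5 of the 6), 137 to 390 in frontal SM, 243 to 493 in lambdoid SM, 89 to 163 in sagittal SM and 2939 to 5185 for coronal less other sutures (1 to 2 of the 6). FR against PA ranged from 1845 to 3279 at E16.5 (0 to 1 of the 6) and 589 to 1088 at E18.5 (1 to 2 of the 6). Directions turned for uncalled values within these ranges. With age, frontal SM had Tspan2 at -0.30 to 0.07, Cav1 at -0.31 to 0.04 and Fhl1 at -0.071 to 0.14. Lambdoid SM had Stk26 at -0.20 to 0.37, Net1 at -0.044 to 0.073 and Fhl1 at -0.29 to 0.016. Sagittal SM had Stk26 at -0.038 to 0.36, Net1 at -0.086 to 0.082 and 2010111I01Rik at -0.033 to 0.12. 2010111I01Rik was at -0.10 to 0.19 for coronal less other sutures, and Stk26 at -0.23 to 0.91 in FR. In FR against PA at E16.5, Tspan2 was at -0.03 to 0.67, Stk26 at -0.87 to 0.083 and Fhl1 at -0.058 to 0.21. At E18.5 Tspan2 was at -0.11 to 0.14, 2010111I01Rik at -0.10 to 0.015 and Fhl1 at -0.16 to 0.061. For the change between ages Tspan2 was at -0.53 to 0.001 and Net1 at -0.22 to 0.18. In single cells the log2 ratio of suture mesenchyme-like to osteoblast-like CPM was 0.785 (Tspan2), 2.576 (Net1), 2.209 (Cav1) and 2.351 (Fhl1) without library 1, and 1.082 (Net1), 3.568 (Cav1) and 1.248 (Fhl1) without library 2, with an osteoblast-like level of Cav1 that is read as background. Stk26 gave no value without library 1. There 30 components gave no suture mesenchyme-like class and so no value.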
